A study of Mus musculus with 21 samples.

Results

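The genes described here are 10 mouse genes that build, load or switch on major histocompatibility complex (MHC) class I molecules. They are B2m, H2-K1, H2-D1, Tap1, Tap2, Tapbp, Psmb8, Psmb9, Psmb10 and Nlrc5. They were chosen by name, and the Entrez identifier of each was found in the table, so 10 of 30519 genes are members. Libraries were made from progenitors of megakaryocytes and red cells (MEP) and from hematopoietic stem cells (HSC), both isolated from mouse bone marrow by cell sorting. The animals carried Etv6 P216L, Etv6 S211I, both changes together (double mutant) or wild-type (WT) Etv6, a transcriptional repressor of the ETS family. Each group had n = 3 libraries, except MEP S211I, MEP WT and HSC S211I with n = 2. One variant is spelled S211I in the sample titles and P211I in the genotype field, and the title form is used. The labels give no age, strain or number of allele copies for the animals, and they do not say that libraries came from separate animals, so p-values measure the spread between libraries only.

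MHC class I molecules carry peptides from inside the cell to its surface, where CD8 T cells and natural killer cells inspect them. A heavy chain, such as those encoded by H2-K1 and H2-D1, pairs with the light chain beta-2 microglobulin, encoded by B2m. The peptides are cut by the proteasome, in which the interferon-inducible subunits Psmb8, Psmb9 and Psmb10 can take the places of the standard catalytic subunits Psmb5, Psmb6 and Psmb7. Tap1 and Tap2 pump the peptides into the endoplasmic reticulum, and tapasin, encoded by Tapbp, holds the empty class I molecule at that pump. Nlrc5 is a transcriptional coactivator of class I genes. In blood-forming tissue, class I molecules are found on nearly all nucleated cells.

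The depth differed widely between the cell types. MEP libraries held 3387389 to 12130358 estimated counts and 12723 to 15914 detected genes, against 151216 to 2250654 counts and 3988 to 10280 genes in 10 of the 11 libraries from HSC. One library stood apart, labelled as replicate 2 of HSC S211I. It had 13154016 counts, 16603 genes and a profile that correlated with the MEP mean at r = 0.983 across genes, against 0.985 to 0.994 for MEP libraries and 0.429 to 0.751 for the other HSC libraries. Its levels are therefore shown apart. Group means and tests of HSC S211I include it, and only some of them are also given without it. Summed stem cell markers reached 681 to 1035 CPM (counts scaled to a common library total) in MEP, 2432 to 7618 CPM in the 10 HSC libraries and 1317 CPM in that library. Summed erythroid markers were 21836 to 26819 CPM in MEP, 4621 to 34253 CPM in the 10 HSC libraries and 22629 CPM in that library, so the erythroid sums overlapped between the cell types. Of 15 erythroid markers tested, 8 were called higher in MEP, among them Car1, Epor and Klf1, and 3 globin genes (Hba-a1, Hbb-bs and Hbb-bt) were called lower (edgeR, averaged over P216L, the double mutant and WT). One count was worth 0.0824 to 0.295 CPM in a MEP library and 0.444 to 6.61 CPM in the 10 HSC libraries. All 10 members passed the filter on low counts in the MEP, HSC and joint fits.

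B2m, the light chain shared by every classical class I molecule, was detected in all 21 libraries. Its level in MEP was 1141, 1237 and 1143 CPM with P216L, 1198 and 1363 CPM with S211I, 1183, 1034 and 879 CPM in the double mutant and 770 and 1056 CPM in WT. In HSC it was 1759, 2254 and 1145 CPM with P216L, 2201 CPM in S211I replicate 1, 1686, 3227 and 1552 CPM in the double mutant and 2744, 2228 and 1640 CPM in WT. HSC S211I replicate 2 held 976 CPM, below every other HSC library. The ranges of MEP and HSC overlapped through HSC P216L replicate 3. Averaged over P216L, the double mutant and WT, the fitted difference of MEP from HSC was -0.49 ± 0.23 on the log2 scale (SE), which did not pass the test (edgeR quasi-likelihood, adjusted p = 0.12). B2m was called lower in MEP with relative log expression (RLE) scaling, another way to set library sizes (-0.996, edgeR adjusted p = 0.0041), with DESeq2 (adjusted p = 0.0022), after thinning all libraries to one depth (0.02) and without HSC P216L replicate 1 (0.042), within a range of 0.0022 to 0.91 over 26 alternatives.

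H2-K1 encodes a classical heavy chain and had the clearest difference between the cell types. In MEP it was at 553, 505 and 497 CPM with P216L, 557 and 639 CPM with S211I, 457, 449 and 473 CPM in the double mutant and 376 and 536 CPM in WT. In HSC it was at 3281, 2151 and 1000 CPM with P216L, 2953 CPM in S211I replicate 1, 1678, 2255 and 1125 CPM in the double mutant and 3307, 2910 and 2654 CPM in WT. Every MEP library lay below every HSC library other than S211I replicate 2, which held 589 CPM and fell inside the MEP range. H2-K1 was 3.29-fold lower in MEP than in HSC when averaged over P216L, the double mutant and WT (log2 fold change -1.72 ± 0.27, edgeR adjusted p = 0.00023). That call held in all 26 alternatives, with adjusted p from 1e-09 to 0.02.

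H2-D1, the other classical heavy chain, was at 1291, 1061 and 965 CPM in MEP with P216L, 1172 and 1260 CPM with S211I, 1188, 994 and 912 CPM in the double mutant and 747 and 1204 CPM in WT. In HSC the values were 1488, 2288 and 1417 CPM with P216L, 2773 CPM in S211I replicate 1, 2609, 2035 and 1595 CPM in the double mutant and 3055, 3831 and 2358 CPM in WT. Here too every MEP library lay below those 10 HSC libraries in CPM, and HSC S211I replicate 2 held 1122 CPM. This separation does not survive the scaling factors of the joint edgeR fit, by which CPM is further divided. They were 1.52 for HSC P216L replicate 1 (1488 CPM) and 0.862 for MEP P216L replicate 1 (1291 CPM), which puts that HSC library below. The averaged log2 fold change was -0.67 ± 0.23, a 1.59-fold lower level in MEP (edgeR adjusted p = 0.037). This call was lost in 18 of 26 alternatives, with adjusted p from 0.00014 to 0.65. Among them were fits without HSC S211I replicate 2 (adjusted p = 0.12), without HSC WT replicate 2, HSC P216L replicate 2 or 3, or HSC double mutant replicate 1 or 2 (0.054 to 0.12), and without any 1 of the 8 MEP libraries compared (0.065 to 0.38). The log2 fold change stayed negative in all 26.

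**Figure D1:**
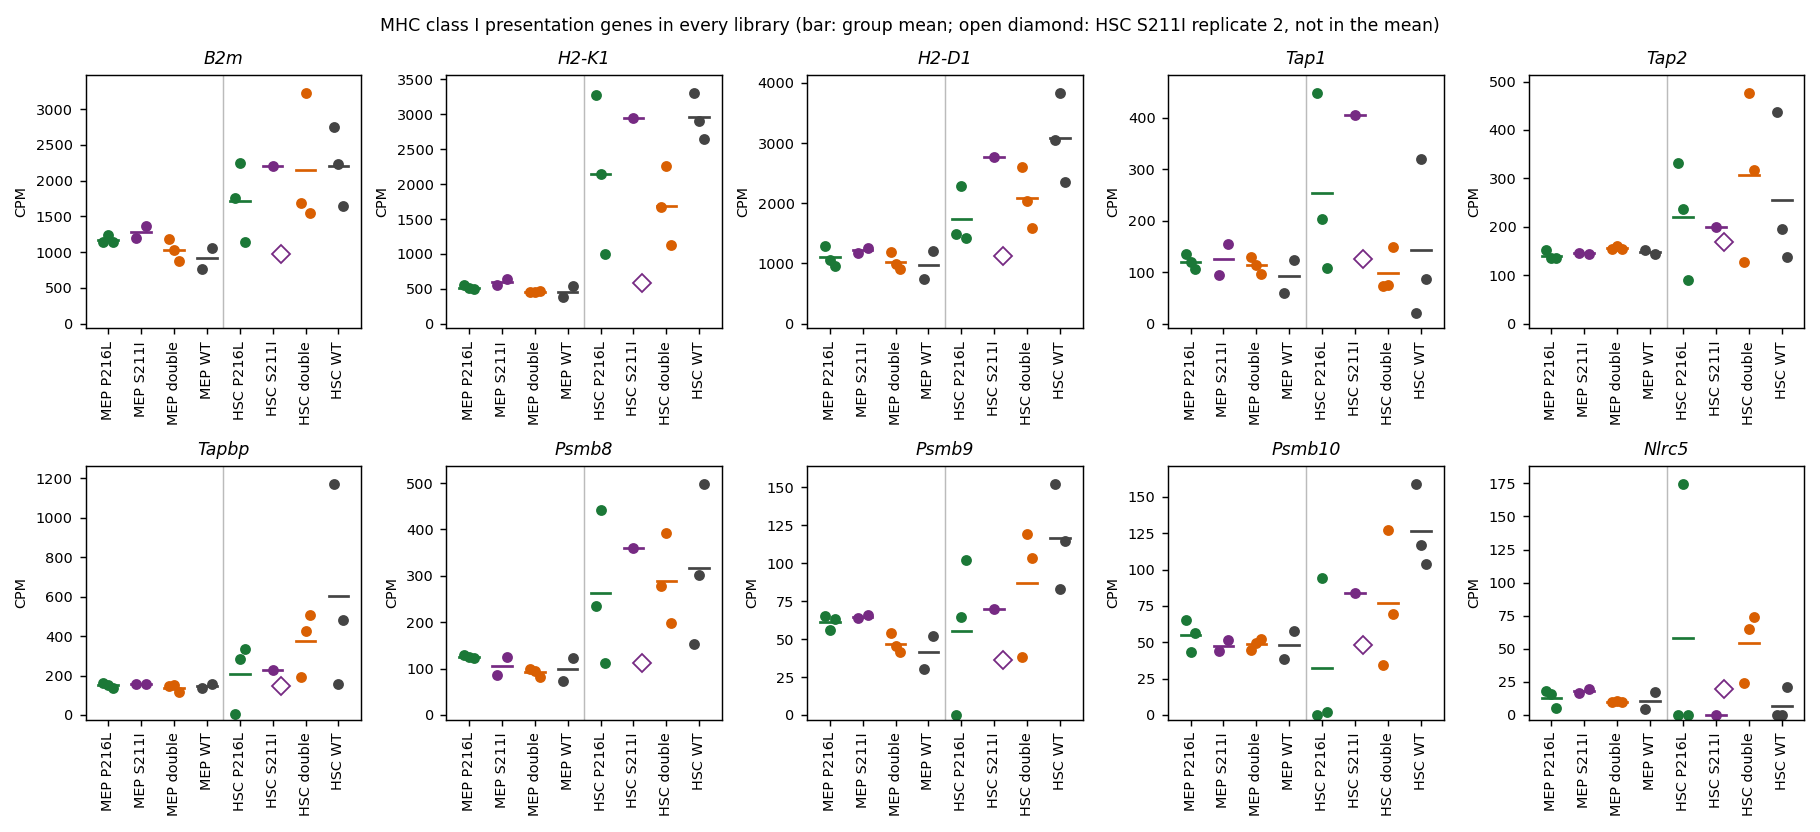
CPM of each of the 10 genes in all 21 libraries, by cell type and Etv6 genotype. Points are libraries, bars are group means, and the open diamond is HSC S211I replicate 2, which is left out of the means. H2-K1 and H2-D1 are the panels in which all MEP points lie below all filled HSC points.

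These 2 genes were the only members for which all MEP libraries lay below all 10 HSC libraries in CPM, where 0.947% of the 12036 genes tested did so. Non-overlap is counted in CPM throughout, without the scaling factors of the fits. Those of the joint fit were 0.841 to 0.878 in MEP and 0.92 to 1.69 in these HSC libraries, so the scaling raises MEP against HSC. With HSC S211I replicate 2 included, 0 of 10 members did, against 0.557% of genes. At an adjusted p under 0.05 in the averaged comparison, 2 of 10 members were lower and 0 were higher in MEP, where 6.0% of genes were lower and 16.2% were higher. The median log2 fold change was -0.58 over the 10 members and 0.73 over all genes tested. Under RLE scaling the corresponding medians were -1.07 and 0.31, so both medians were lower. In bulk libraries, fewer cells of one type and less RNA per cell cannot be told apart.

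The promoters of the light chain and the classical heavy chains are shown because these genes encode the parts of the class I molecule itself. In the averaged comparison H2-K1 was called in all 26 alternatives, while the calls of H2-D1 and B2m depended on the setting. RefSeq promoter windows on GRCm38.p6 were found for 8 of the 10 members, and each window printed holds the 250 bases before the annotated start, 5′ to 3′. B2m lies on chromosome 2, chr2:122147437-122147686, plus strand. H2-K1 lies on chromosome 17, chr17:34000348-34000597, minus strand, and H2-D1 at chr17:35262844-35263093, plus strand. Capitals mark a match to the core of the interferon-stimulated response element in B2m (GAAA, any 2 bases, GAAA), and to a kappaB motif in the heavy chains (GGGGA, any 2 bases, CCCC). Both strands were searched.
B2m: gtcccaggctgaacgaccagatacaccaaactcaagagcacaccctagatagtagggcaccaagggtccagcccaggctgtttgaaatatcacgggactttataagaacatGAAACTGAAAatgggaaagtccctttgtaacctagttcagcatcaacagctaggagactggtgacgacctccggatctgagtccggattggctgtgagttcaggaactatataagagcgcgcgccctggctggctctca
H2-K1: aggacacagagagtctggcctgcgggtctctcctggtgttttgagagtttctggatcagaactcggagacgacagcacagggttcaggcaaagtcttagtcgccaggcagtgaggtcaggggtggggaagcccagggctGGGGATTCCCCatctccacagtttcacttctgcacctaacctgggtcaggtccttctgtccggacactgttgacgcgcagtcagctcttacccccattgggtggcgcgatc
H2-D1: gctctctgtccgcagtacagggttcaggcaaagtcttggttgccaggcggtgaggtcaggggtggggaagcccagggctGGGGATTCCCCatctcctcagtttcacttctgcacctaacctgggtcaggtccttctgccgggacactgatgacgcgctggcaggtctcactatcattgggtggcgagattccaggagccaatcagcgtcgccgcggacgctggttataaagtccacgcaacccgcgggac

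The windows of H2-K1 and H2-D1 were 87.9% identical over 240 aligned columns, and both held the same kappaB sequence, GGGGATTCCCC. H2-K1 has a second annotated start, whose window is not printed. From that start the identity was 87.4% over 254 columns. The motif was found in 0.507% of the 27025 genes with a window. The response element core stood in 1 of the 8 members, B2m, and in 3.99% of genes. Only exact matches to the pattern were sought, so a window without a match, such as those of H2-K1 and H2-D1, can still hold a variant of the element. On either strand TGACG, the core of the cyclic AMP response element, was found in 5 of 8 members (B2m, H2-K1, H2-D1, Tap1 and Psmb9) and in 23.1% of genes. CCAAT, the core of the Y box, was found in 6 of 8 (the same 5 and Tapbp) and in 41.1% of genes. The ETS motif CCGGAAGT was found in 0 of 8 members and in 4.31% of genes, while its core GGAA stood in 8 of 8 and in 96.5% of genes. CCGGAAGT contains GGAA, so these 2 searches overlap. These shares are over the full windows of 300 bases, which add the 50 bases after the start. Tap1 and Psmb9 start in opposite directions from one shared stretch of chromosome 17, and 275 of their 300 bases are the same sequence read on opposite strands. Their TGACG matches are the same bases, as are their CCAAT matches, so the member counts above include each of these sites once per gene.

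**Figure D2:**
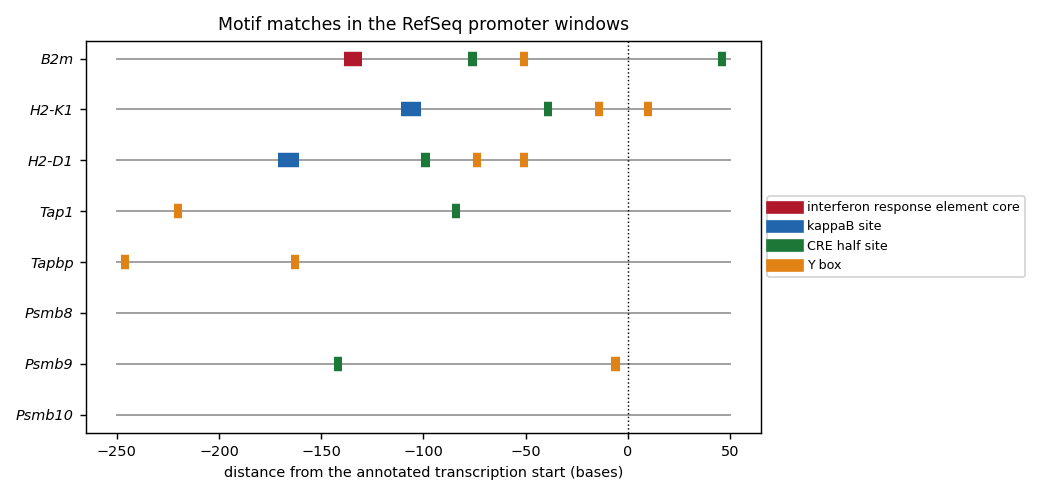
Matches to 4 motifs in the RefSeq promoter windows of the 8 members that have one, by distance in bases from the annotated transcription start (dotted line), on both strands. The kappaB match lies 111 to 101 bases before the start of H2-K1 that is drawn and 171 to 161 bases before that of H2-D1. From the other annotated start of H2-K1 it lies 125 to 115 bases away. The response element core lies 139 to 130 bases before the start of B2m.

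The 2 heavy chains were also compared with each other within each library, where library size cancels. The ratio of H2-D1 to H2-K1 counts was 2.33, 2.10 and 1.94 in MEP P216L, 2.10 and 1.97 in MEP S211I, 2.60, 2.21 and 1.93 in the MEP double mutant and 1.99 and 2.25 in MEP WT. In HSC it was 0.454, 1.06 and 1.42 with P216L, 0.939 in S211I replicate 1, 1.56, 0.902 and 1.42 in the double mutant and 0.924, 1.32 and 0.888 in WT. HSC S211I replicate 2 had a ratio of 1.90. Every MEP library was above all 11 HSC libraries. The mean log2 ratio was 1.09 ± 0.14 in MEP (SD, n = 10) and 0.13 ± 0.56 in HSC (SD, n = 11), a difference of 0.97 (two-sided permutation test, p = 2e-05, the smallest the 100000 resamples can give; 8e-05 adjusted over 4 ratios). Without HSC S211I replicate 2 the difference was 1.05, with the same p. The ratio was chosen after the levels had been seen. The 2 genes are close paralogs, and the estimated counts were not whole numbers in 18 of 21 libraries for H2-K1 and in 20 of 21 for H2-D1, against 0 of 21 for B2m. How reads were divided between the 2 genes was not examined, so the ratio is uncertain.

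**Figure D3:**
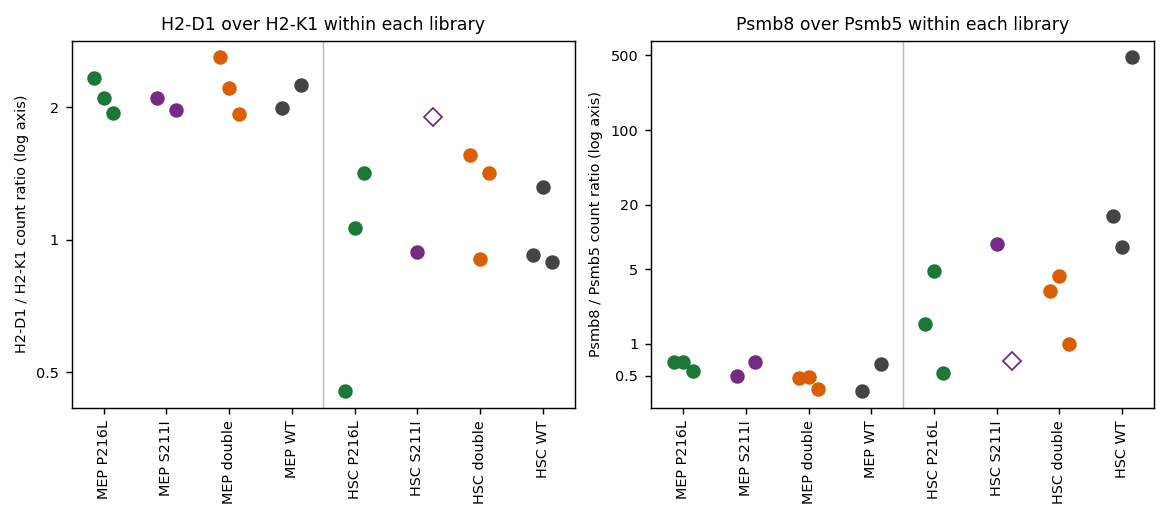
Count ratios within each library on a log axis, for H2-D1 over H2-K1 (left) and for the immunoproteasome subunit Psmb8 over its standard counterpart Psmb5 (right), with 0.5 added to each count. Points are libraries and the open diamond is HSC S211I replicate 2. The H2-D1 to H2-K1 ratio is 1.93 to 2.60 in MEP and at most 1.90 in HSC, and the Psmb8 to Psmb5 ratio is 0.361 to 0.669 in MEP and up to 479 in an HSC WT library without a Psmb5 count.

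The peptide pump genes and Tapbp did not pass edgeR's test between cell types. Tap1 ranged from 60.3 to 156 CPM in MEP, with a median of 117 CPM, and from 19.8 to 448 CPM in the 10 HSC libraries, with a median of 128 CPM. Tap2 ranged from 135 to 160 CPM in MEP, with a median of 149 CPM, and from 90.6 to 476 CPM in HSC, with a median of 218 CPM. Tapbp had a median of 151 CPM in MEP, with a range of 117 to 161 CPM, and a median of 310 CPM in HSC, with a range of 7.39 to 1171 CPM. The HSC ranges enclosed the MEP ranges for all 3 genes. The averaged log2 fold change of Tapbp was -0.91 ± 0.55 (edgeR adjusted p = 0.25), and it was called lower with DESeq2 (-1.36, adjusted p = 0.033) and without HSC P216L replicate 1 (-1.12, 0.031). In HSC S211I replicate 2, Tap1, Tap2 and Tapbp were at 125, 168 and 146 CPM. Tap2 was the steadiest member among the MEP libraries, with a coefficient of variation of 5.61%, against a median of 16.1% over the 10 members and 14.3% over 7989 genes with a mean of at least 10 CPM.

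Of the immunoproteasome subunits, Psmb8 had a median of 111 CPM in MEP, with a range of 74.3 to 129 CPM, and of 290 CPM in the 10 HSC libraries, with a range of 112 to 498 CPM. Its averaged log2 fold change was -1.06 ± 0.50 (edgeR adjusted p = 0.13), so the difference did not pass. It was called lower with RLE scaling (-1.51, edgeR adjusted p = 0.03), with DESeq2 (-1.51, 0.00042) and without HSC P216L replicate 1 (-1.14, 0.049), within a range of 0.00042 to 0.53 over 26 alternatives. Psmb9 had a median of 54.9 CPM in MEP, with a range of 30.6 to 66.1 CPM, and of 92.6 CPM in HSC, with a range of 0 to 152 CPM. Psmb10 had a median of 50.4 CPM in MEP, with a range of 38.6 to 65.4 CPM, and of 89.0 CPM in HSC, with a range of 0 to 159 CPM. Both were at 0 in HSC P216L replicate 1, where 3 counts would be 7.39 CPM. In HSC S211I replicate 2, Psmb8, Psmb9 and Psmb10 were at 111, 36.2 and 48.1 CPM.

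Set against their standard counterparts in the same library, Psmb8 had a lower ratio in MEP, and the calls for the other subunits turned on libraries without counts. The median ratio of Psmb8 to Psmb5 counts was 0.525 in MEP and 4.34 in the 11 HSC libraries, a mean log2 difference of -3.12 (two-sided permutation test, p = 0.0001, adjusted over 4 ratios 0.0002). The ratio of Psmb10 to Psmb7 had medians of 0.326 in MEP and 1.42 in HSC, a difference of -2.58 (permutation p = 0.011, adjusted 0.015). HSC P216L replicate 1 had 0 counts of both genes, which the added 0.5 turns into a ratio of 1, and Psmb7 was also at 0 in HSC S211I replicate 1 and HSC WT replicate 2. Without these 3 libraries the difference was -1.36 and did not pass (permutation test, adjusted p = 0.066). The ratio of Psmb9 to Psmb6 had medians of 0.142 in MEP and 0.231 in HSC, a difference of -0.49 that did not pass (permutation p = 0.49). Psmb9 was at 0 in HSC P216L replicate 1, which had the lowest HSC ratio (0.00645). Without that library the difference was -0.98 and passed (permutation test, adjusted p = 0.0065). Leaving out the lowest HSC ratio can only widen the difference, so no conclusion is drawn from this pass. Psmb5 was at 0 in HSC WT replicate 3, and without it the Psmb8 to Psmb5 difference was -2.45 (adjusted p = 0.00032). Ratios overlapped between the cell types for all 3 pairs. Psmb5 itself, which carries the chymotrypsin-like activity of the standard proteasome, averaged 197 ± 15.6 CPM in MEP and 91.7 ± 75.1 CPM in the 10 HSC libraries (SD, n = 10 each).

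Nlrc5, the coactivator, was the most sparsely measured member. It was detected in all 10 MEP libraries, at 18.2, 15.6 and 5.31 CPM with P216L, 16.5 and 19.7 CPM with S211I, 9.78, 10.5 and 9.88 CPM in the double mutant and 4.32 and 17.2 CPM in WT. In HSC it was at 0, 174 and 0 CPM with P216L, 0 CPM in S211I replicate 1, 24.4, 65.0 and 73.8 CPM in the double mutant and 0, 0 and 20.8 CPM in WT. HSC S211I replicate 2 held 19.5 CPM. In 5 of the 10 HSC libraries there was thus no count, which at their depths allows up to 3.53 to 19.8 CPM (3 counts, for counting error only).

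**Figure D4:**
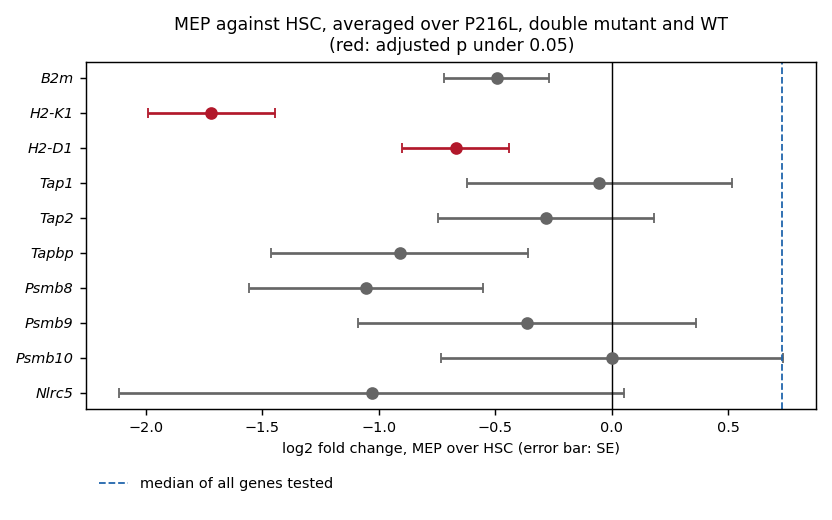
Fitted log2 fold change of MEP over HSC with its SE for the 10 members, averaged over P216L, the double mutant and WT. The dashed line is the median of all genes tested, 0.73. H2-K1 at -1.72 and H2-D1 at -0.67 are red because their adjusted p was under 0.05.

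Within single genotypes the same contrast rested on 4 to 6 libraries. In P216L 0 of 10 members were called, where 0.0748% of genes were called in either direction (0.00831% higher and 0.0665% lower), and H2-K1 had a log2 fold change of -1.53 ± 0.44 (edgeR adjusted p = 0.10). In S211I 0 of 10 were called, where 0.00% of genes were, and H2-K1 was at -1.21 ± 0.54 (edgeR adjusted p = 1). That S211I value became 0.01 without HSC S211I replicate 1, since the library left is HSC S211I replicate 2. In the double mutant 0 of 10 were called, where 0.241% of genes were (0.00831% higher and 0.233% lower), and H2-K1 was at -1.62 ± 0.44 and B2m at -0.80 ± 0.37 (edgeR adjusted p = 0.11 and 0.28). In WT 1 of 10 members was lower, where 0.474% of genes were, and 0 were higher, where 3.62% of genes were. The lower one was H2-K1 at -2.01 ± 0.52 (edgeR adjusted p = 0.028). The WT call was lost without HSC WT replicate 2 (adjusted p = 0.059), MEP WT replicate 1 (0.28) or MEP WT replicate 3 (0.17), and also without the low-count filter (0.27) and with only the groups compared (0.11), within a range of 0.0002 to 0.28 over 14 alternatives. By levels alone, 7 of 10 members had both MEP WT libraries below all 3 HSC WT libraries, where 8.23% of genes did. These were B2m, H2-K1, H2-D1, Tapbp, Psmb8, Psmb9 and Psmb10. In the double mutant 6 of 10 did so, where 9.43% of genes did, in P216L 2 of 10, where 4.20% did, and in S211I 1 of 10 (Tap2), where 15.9% did. No member had all MEP libraries above all HSC libraries of its genotype, where 35.8% of genes did in WT, 26.4% in P216L, 22.6% in S211I and 21.2% in the double mutant. All these counts are of CPM. With the scaling factors of the joint fit, Tapbp and Psmb8 in WT, H2-D1 in P216L and Tap2 in S211I overlapped between the cell types. For Tap2 the factors were 1.185 in HSC S211I replicate 1 (199 CPM) and 0.867 in MEP S211I replicate 1 (147 CPM). The WT factors were 1.69 and 1.35 in HSC replicates 1 and 2, against 0.841 and 0.859 in MEP replicates 1 and 3.

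The lowest and the highest group were the same for the light chain and both heavy chains. For B2m, H2-K1 and H2-D1, the means of the 4 MEP groups all stood below those of the 4 HSC groups, with MEP WT at the bottom (913 ± 203, 456 ± 113 and 975 ± 323 CPM, SD, n = 2) and HSC WT at the top (2204 ± 553, 2957 ± 329 and 3081 ± 737 CPM, SD, n = 3). For B2m no neighbours in that order were further apart than the larger of their SDs. For H2-K1 the neighbours at the border of the cell types, MEP S211I (598 ± 58 CPM, SD, n = 2) and the HSC double mutant (1686 ± 565 CPM, SD, n = 3), were. For H2-D1 the border fell between MEP S211I (1216 ± 63 CPM, SD, n = 2) and HSC P216L (1731 ± 484 CPM, SD, n = 3), again further apart than the larger SD. The HSC S211I means include replicate 2. The place of MEP WT rests on replicate 1. Replicate 3 alone, at 1056, 536 and 1204 CPM, lies above the MEP double mutant means of all 3 genes and above the MEP P216L means of H2-K1 and H2-D1.

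Genes around the class I pathway gave a mixed picture between MEP and HSC. These lists were drawn up with earlier results of the data known. Of 14 other class I heavy chain genes tested, 5 were lower and 0 higher in MEP, with a median log2 fold change of -1.79, where 6.0% of all genes were lower. Fcgrt, the receptor that carries IgG, was at 0 to 2.11 CPM in MEP and 27.1 to 281 CPM in the 10 HSC libraries, a log2 fold change of -6.38 ± 1.16 (edgeR adjusted p = 0.00083). H2-K2, H2-M3 and Cd1d1, which presents lipids, were lower by -4.77 ± 1.09, -2.76 ± 0.93 and -2.71 ± 0.80 (edgeR adjusted p = 0.0038, 0.033 and 0.018). H2-Q6 was at 19.4 to 95.1 CPM in MEP and 77.7 to 491 CPM in HSC. Fcgrt kept its call in all 26 alternatives. Counts of the H2 heavy chains can be split between near-identical copies, so these values are uncertain.

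Of 11 standard proteasome genes, 7 were higher and 0 lower in MEP, where 16.2% of genes were higher, and all 11 had positive log2 fold changes, with a median of 1.33. Psmb5 was 4.10-fold higher (2.04 ± 0.61, edgeR adjusted p = 0.019), and Psmb4, Psmb3 and Psma3 were 3.35-, 3.28- and 3.02-fold higher (edgeR adjusted p = 0.033, 0.043 and 0.039). With RLE scaling 0 of the 11 passed and with DESeq2 4 did, while all 11 stayed positive, so the count depends on the scaling. Of 15 genes for peptide loading and trimming, 3 were higher and 0 lower: Psme3, a proteasome activator subunit (1.45 ± 0.43, edgeR adjusted p = 0.017), and the endoplasmic reticulum chaperones Hspa5 (1.32 ± 0.29, 0.0031) and Pdia3 (0.98 ± 0.33, 0.035). That is 3 of 15, where 16.2% of all genes were higher. Under RLE scaling only Hspa5 passed.

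Among 19 transcription regulators of class I genes, 3 were lower and 0 higher in MEP, where 6.0% of genes were lower and 16.2% higher. Among them were Irf1 and Irf2, which bind interferon response elements, with log2 fold changes of -3.10 ± 1.03 and -1.99 ± 0.71 (edgeR adjusted p = 0.031 and 0.044). The Irf1 value rested on HSC P216L replicate 3, without which it was 0.18 (adjusted p = 0.85, within 5.8e-05 to 0.85 over 26 alternatives). The call of Irf2 was lost in 15 of 26 alternatives, with adjusted p from 1.8e-05 to 0.21. Of 9 interferon signalling genes 0 were called. The interferon receptor chain Ifngr1 had a log2 fold change of 1.74 (edgeR adjusted p = 0.094) and the kinase Jak1 of -0.23 (0.70).

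Of 22 interferon-stimulated genes, 4 were lower and 1 was higher in MEP, with a median log2 fold change of -1.06, where 6.0% of genes were lower and 16.2% higher. The lower ones were Iigp1, a GTPase that acts on vacuoles of pathogens, at 0 to 3.55 CPM in MEP and 0 to 566 CPM in HSC (edgeR adjusted p = 0.00099), Oasl2 (0.0046), Ifi44 (0.020) and Ifitm3 (0.0011). Ifitm3 hinders virus entry and was at 10.96 to 33.95 CPM in MEP and 64.9 to 766 CPM in HSC. Oas1a was the higher one, at 7.06 to 17.1 CPM in MEP and at 0 in 6 of the 10 HSC libraries (edgeR adjusted p = 0.036). Its call was lost with RLE scaling (0.092), without the low-count filter (0.075) and without any 1 of the 8 MEP libraries compared (0.052 to 0.076). Of 8 class II presentation genes, 4 were lower and 0 higher, where 6.0% and 16.2% of genes were. They were Cd74, the invariant chain, at 2.30 to 18.2 CPM in MEP and 67.1 to 606 CPM in HSC (edgeR adjusted p = 0.00041), H2-Aa (0.0092), H2-Eb1 (0.0089) and H2-DMb1 (0.034). Ifitm3, Iigp1 and Cd74 kept their calls in all 26 alternatives.

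Markers of other cells differed in the same contrast, not all in one direction. Summed markers of monocytes, macrophages and dendritic cells were 11.6 to 58.4 CPM in MEP, 262 to 1389 CPM in the 10 HSC libraries and 99.5 CPM in HSC S211I replicate 2. They were detected at 7 to 14 markers per MEP library and at 2 to 8 per HSC library. Summed endothelial and stromal markers were 6.23 to 23.98 CPM in MEP and 25.9 to 13098 CPM in HSC, neutrophil markers 2.94 to 167 CPM and 99.5 to 4407 CPM, T and NK cell markers 4.67 to 23.3 CPM and 0 to 734 CPM, and B cell markers 12.1 to 40.8 CPM and 0 to 244 CPM. In the averaged comparison 7 of 10 neutrophil markers were called lower and 1 higher (Ctsg), 2 of 9 monocyte, macrophage and dendritic cell markers lower and 1 higher (Csf1r), 5 of 11 endothelial and stromal markers lower, and 2 of 8 B cell markers higher (Igll1 and Vpreb1), by edgeR. Of the B cell list 5 markers had a count in HSC P216L, 9 in HSC S211I, 7 in the HSC double mutant and 2 in HSC WT, and of the T and NK cell list 2, 6, 3 and 2 of 10 did. The part of these cells in the levels of the class I genes was not tested.

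The Etv6 changes were then set against WT within MEP, where the spread between libraries was small (biological coefficient of variation 0.174). No member passed the test: 0 of 10 with P216L, where 0.00% of 10773 genes were called, 0 of 10 with S211I, where 0.00% were, and 0 of 10 in the double mutant, where 0.102% were (0.0278% higher and 0.0743% lower). At an unadjusted p under 0.05 (edgeR), 2 members were higher with P216L, 3 with S211I and 0 in the double mutant, among 552, 511 and 565 genes. DESeq2 and limma's voom also called 0 members in each. The 3 comparisons share the same 2 WT libraries. Neutrophil markers differed alongside: 9 of 9 had positive log2 fold changes in each mutant, with medians of 2.23, 1.98 and 1.79, and 0 were called (edgeR). Their sum was 32.4 to 167 CPM with P216L, 16.5 to 104 CPM with S211I, 31.5 to 84.6 CPM in the double mutant and 2.94 and 20.4 CPM in WT. Their part in the levels of the members was not tested.

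B2m averaged 1174 ± 55 CPM with P216L (SD, n = 3), 1280 ± 117 CPM with S211I (SD, n = 2), 1032 ± 152 CPM in the double mutant (SD, n = 3) and 913 ± 203 CPM in WT (SD, n = 2). Its log2 fold change from WT was 0.34 ± 0.13 with P216L, 0.45 ± 0.14 with S211I and 0.16 ± 0.13 in the double mutant (edgeR adjusted p = 0.98, 0.94 and 1). H2-K1 had log2 fold changes of 0.17 ± 0.13, 0.35 ± 0.14 and -0.001 ± 0.13 in the same order, and H2-D1 of 0.16 ± 0.16, 0.28 ± 0.18 and 0.07 ± 0.16 (edgeR adjusted p from 0.94 to 1). Psmb9 averaged 61.5 ± 5.0 CPM with P216L, 64.9 ± 1.7 CPM with S211I, 47.1 ± 6.3 CPM in the double mutant and 41.3 ± 15.1 CPM in WT. Its log2 fold changes were 0.54 ± 0.21 with P216L and 0.60 ± 0.22 with S211I (edgeR adjusted p = 0.98 and 0.94). The other 6 members had log2 fold changes of -0.10 (Tap2) to 0.36 (Tap1) with P216L, -0.07 (Tap2) to 0.67 (Nlrc5) with S211I and -0.15 (Nlrc5) to 0.28 (Tap1) in the double mutant.

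These values turned on MEP WT replicate 1. It was the lowest of the 10 MEP libraries for 8 of 10 members, all but Tap2 and Tapbp, while it was the lowest for 15.6% of 10773 genes. MEP WT replicate 3 lay within the range of the mutant libraries for all 10 members. Without MEP WT replicate 1, the log2 fold change of B2m was 0.14 with P216L, 0.25 with S211I and -0.04 in the double mutant. H2-D1 turned to -0.13, -0.01 and -0.23, and H2-K1 turned to -0.06 with P216L. At the upper end, MEP S211I replicate 2 was the highest library for B2m, H2-K1, Tap1, Psmb9 and Nlrc5, and MEP P216L replicate 1 for H2-D1, Tapbp, Psmb8 and Psmb10. Members whose mutant libraries all lay above both WT libraries numbered 3 with P216L (B2m, Psmb8 and Psmb9), where 10.7% of genes did so, 4 with S211I (B2m, H2-K1, Tapbp and Psmb9), where 21.8% did, and 1 in the double mutant (Tap2), where 13.8% did. With the scaling factors of the MEP fit, Tapbp with S211I and Tap2 in the double mutant overlapped with WT. Members whose mutant libraries all lay below both WT libraries numbered 0 in each, where 6.97%, 15% and 11% of genes did so with P216L, with S211I and in the double mutant.

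**Figure D5:**
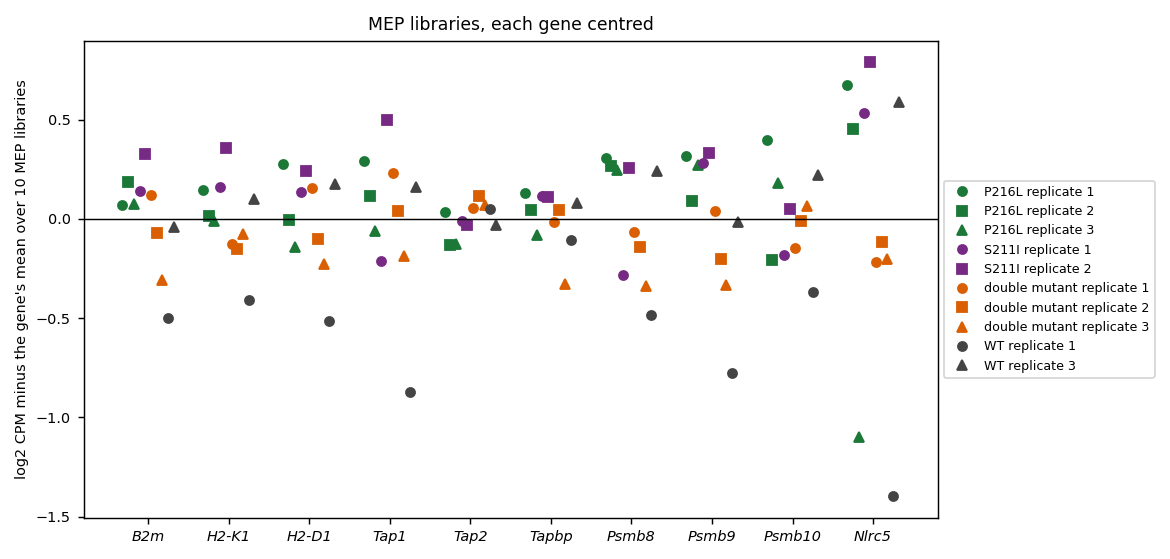
Log2 CPM of each member in the 10 MEP libraries, minus the mean of that gene over them. Colour gives the Etv6 genotype and marker shape the replicate number. MEP WT replicate 1 is the lowest point for 8 of the 10 genes and MEP S211I replicate 2 is the highest for 5.

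Members other than Tap2 rose and fell together among the MEP libraries, with MEP WT replicate 1 apart from the rest. The members' mean log2(CPM + 1) was 6.69 in that library and 7.02 to 7.50 in the other MEP libraries. The correlations below include it, and were not computed without it or for other sets of genes. The correlation of a member's log2(CPM + 1) with the mean of the other 9 ran from 0.53 to 0.94 over 10 libraries for 9 members, and was -0.33 for Tap2. Of all genes, those most like the members' mean in MEP were H2-Q7 (r = 0.949), Prkch (0.931), Galnt6 (0.928), H2-Q6 (0.921) and Parp9 (0.921). H2-Q6 and H2-Q7 are class I heavy chains of the Q region, with non-whole counts in 20 of 21 libraries each, and how reads were divided among related genes was not examined. In the 10 HSC libraries the correlations ran from -0.45 for Tap1 to 0.88 for Psmb10, and the genes most like the mean were Pld3, Sf3b5, Galt, Plaa and Rlim (r = 0.924 to 0.942), each of them at 0 in some library. These correlations describe 10 libraries of mixed genotype that differ in depth, and carry no test.

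In MEP, none of the surrounding lists held a called gene in any mutant. The median log2 fold change of the interferon-stimulated genes was 0.58 with P216L, 0.32 with S211I and 0.01 in the double mutant, over 19 genes tested, against medians of 0.01, 0.00 and 0.01 over all genes. Other class I heavy chains had medians of 0.38, 0.56 and 0.01 over 12 genes. Standard proteasome genes had medians of 0.00, -0.20 and -0.03 over 11 genes, and with S211I 0 of these 11 were positive. The summed CPM of the interferon-stimulated list was 422 to 626 CPM in the MEP mutants, against 415 CPM in MEP WT replicate 1, again the lowest library, and 520 CPM in MEP WT replicate 3. Genes with the highest mean CPM of each list, among them Hspa5, Canx, Jak1, H2-T23, Isg20 and Psma3, had adjusted p of 0.98 to 1 with P216L, 0.94 to 0.99 with S211I and 0.97 to 1 in the double mutant (edgeR).

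In HSC the spread between libraries was wide (biological coefficient of variation 1.60), and no member passed edgeR's test against WT in any mutant. With P216L 0 of 10 members were called, where 0.106% of 9471 genes were, with S211I 0 of 10, where 0.0845% were, and in the double mutant 0 of 10, where 0.0739% were (0.0528% higher and 0.0211% lower). At an unadjusted p under 0.05 (edgeR) 0 members stood out in each, among 1223, 772 and 997 genes, and DESeq2 and limma's voom called 0 members in each. The fitted log2 fold change was negative for 8, 8 and 6 of 10 members, with medians of -0.30, -0.35 and -0.20 over the members and 0.13, 0.43 and 0.44 over all genes. The S211I values in this paragraph include replicate 2. Without it the S211I median over all genes was -0.034. The 3 comparisons share the same 3 WT libraries. Cell type markers moved alongside. Erythroid markers had positive log2 fold changes in 15 of 15 with each mutant (medians 2.63, 2.17 and 1.99), and stem cell markers in 3, 2 and 4 of 16 (medians -0.87, -1.19 and -0.69), with 0 of either called (edgeR). Summed erythroid markers were 8624 to 34253 CPM with P216L, 10706 and 22629 CPM with S211I, 8811 to 15646 CPM in the double mutant and 4621 to 6867 CPM in WT. Summed stem cell markers were 2502 to 3953 CPM, 1317 and 4843 CPM, and 2432 to 4877 CPM in the same mutants, and 5866 to 7618 CPM in WT. Neither sum overlapped with WT in any mutant. Their part in the levels of the members was not tested.

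H2-K1 in HSC averaged 2144 ± 1140 CPM with P216L, 1771 ± 1671 CPM with S211I, 1686 ± 565 CPM in the double mutant and 2957 ± 329 CPM in WT (SD, n = 3, 2, 3 and 3). Its log2 fold change from WT was -0.38, -0.53 and -0.55 in that order (edgeR adjusted p = 0.89, 0.93 and 0.78). The S211I value became 0.11 without S211I replicate 2. H2-D1 averaged 1731 ± 484, 1948 ± 1167 and 2079 ± 509 CPM in the 3 mutant groups and 3081 ± 737 CPM in WT, with log2 fold changes of -0.65, -0.41 and -0.29 (edgeR adjusted p = 0.49, 1 and 1). B2m had log2 fold changes of -0.18, -0.19 and 0.25, the last of which turned negative under 6 of 16 alternatives, RLE scaling among them (-0.04). With 1 library left out, the S211I value ranged from -0.295 to 0.132 for B2m and from -0.593 to -0.039 for H2-D1. The S211I counts and ranges that follow include replicate 2. Mutant libraries all below WT were seen for 2 of 10 members with P216L (H2-D1 and Psmb10), where 4.69% of genes did so, for 2 with S211I (Psmb9 and Psmb10), where 6.13% did, and for 1 in the double mutant (H2-K1), where 3.93% did. With the scaling factors of the HSC fit, H2-D1 in P216L overlapped with WT. The factors were 0.951 for HSC P216L replicate 2 (2288 CPM) and 1.33 for HSC WT replicate 1 (3055 CPM). Nlrc5 in the double mutant was the 1 member with all mutant libraries above WT, where 11.3% of genes were, and with P216L and S211I there were 0, where 4.87% and 16.6% of genes were. Tap1, Tap2, Tapbp, Psmb8, Psmb9 and Psmb10 had log2 fold changes of -1.70 (Psmb10) to 0.83 (Tap1) with P216L, -1.33 (Tapbp) to 1.076 (Tap1) with S211I and -0.45 (Psmb10) to 0.60 (Tap2) in the double mutant. The lists around the pathway held 0 called genes in each HSC comparison.

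The effect of each Etv6 change was compared between the cell types in the joint fit. The S211I effect in HSC includes replicate 2. For P216L 0 of 10 members had a different effect in MEP and HSC, where 0.0997% of genes did, for S211I 0 of 10, where 0.00% did, and for the double mutant 0 of 10, where 0.0166% did. Adjusted p over the members ran from 0.64 to 1, 0.75 to 1 and 0.72 to 1 (edgeR), and 0 members reached an unadjusted p under 0.05 in each. For H2-K1 the difference was 0.48 ± 0.65 with P216L, 0.80 ± 0.72 with S211I and 0.40 ± 0.65 in the double mutant (SE), so each SE was close to or above the difference itself. The other members had differences of -2.80 (Nlrc5) to 1.76 (Psmb10) with P216L, -0.73 (Tap1) to 1.36 (Psmb9) with S211I and -3.17 (Nlrc5) to 0.41 (Tap1) in the double mutant.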

How the data were processed

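RNA from sorted cells was extracted with NucleoSpin RNA XS and libraries were made with SMART-Seq v4 chemistry for low input, per the labels' protocols. The authors deposited a table of estimated counts per Entrez gene. Per the submitters' processing notes FastQC, Salmon and GRCm39 were used; their settings are not stated there. Nonzero values that were not whole made up 6.09 to 33.07% of a library, and values were rounded for tests. Symbols came from a GRCm38.p6 annotation for 30211 of 30519 genes; the other 308 held 0.0442% of counts. No per-sample column was left out.

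CPM were computed from each library's total. The tests used edgeR 4.0.16 in R 4.3.3 with trimmed mean of M values (TMM) scaling, filterByExpr (minimum count 10, minimum total 15), robust quasi-likelihood fits and Benjamini-Hochberg adjustment over all genes at 0.05. HSC (9471 genes), MEP (10773) and all libraries jointly (12036, for contrasts between cell types; biological coefficient of variation 1.06) were fitted apart, in 14 comparisons. In the joint fit, MEP and HSC share 1 spread per gene. The averaged comparison takes equal weights of P216L, the double mutant and WT and leaves S211I out. Its libraries still enter the fit. An SE was derived from each log2 fold change and its F statistic (size over root of F). Ratios used counts plus 0.5 and two-sided permutation tests with 100000 resamples (scipy 1.17.1). Alternatives were RLE scaling, no filter, a replicate block, DESeq2 1.42.0, limma 3.58.1 voom with quality weights, only the groups compared, thinning to 151215 counts, a Y-linked covariate in HSC and each library left out. Fits leaving out the 3 most MEP-like HSC libraries (S211I replicate 2, double mutant replicate 3, P216L replicate 3), and all ratios, were chosen after seeing the data.

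The members, lists and tests were chosen with earlier results of these data known. All 10 members were tested in every comparison, and those without a value of their own in the text enter its counts and ranges. Named besides were, from other lists, up to 4 called genes a direction with the largest log2 fold change, or the 2 with the highest mean CPM where none was called, plus the 5 genes most like the members' mean. Libraries of a group differed by a chi-square of 4.63 to 88.2 per degree of freedom over 18 pairs, so none was counted as a copy. The tests were tried on simulated data. Intervals from 3 counts cover counting error only. Promoters are from RefSeq on GRCm38.p6, and no read was realigned. Some list genes are not reported here by name.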

Additional observations from a re-analysis of the deposited data

How the results depend on the processing

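The count of members past the threshold stayed at 0 in each mutant against WT, in each difference of effects between cell types and in MEP against HSC within S211I, under all alternatives run. In MEP against HSC within WT (1 called) it was 2 with RLE scaling, 0 without the low-count filter, 4 with DESeq2, 0 with only the groups compared and 0 to 1 when 1 library was left out. Within P216L (0 called) it was 1 with DESeq2, with only the groups compared and without the 3 most MEP-like HSC libraries, and 0 to 1 when 1 library was left out, the 1 being without HSC P216L replicate 3. Within the double mutant (0 called) it was 1 with DESeq2, 1 with voom, 2 with only the groups compared, 1 without the 3 most MEP-like HSC libraries and 0 in all fits without 1 library. In the averaged comparison (2 called) it was 4 with RLE scaling, 1 without the filter, 1 with the replicate block, 5 with DESeq2, 1 with voom, 1 with only the groups compared, and 1 to 5 when 1 library was left out, the 5 being without HSC P216L replicate 1. The cause was not tested.

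Signs turned in 23 fits of the single genes followed. These were B2m, H2-K1 and H2-D1 against WT and in the averaged comparison. Members at an unadjusted p under 0.05 (edgeR) in a comparison and called genes of the surrounding lists were followed too. Signs of the remaining members are not in that count and turned as well. In the averaged comparison 1 of 10 members was positive, against 3 with voom and 0 with RLE scaling. In HSC S211I, without the 3 most MEP-like HSC libraries, B2m became 0.055 and H2-K1 0.038. In the HSC double mutant B2m became -0.035 with RLE scaling, -0.035 with DESeq2, -0.007 with voom, -0.003 after thinning and -0.028 with the Y-linked covariate. In the MEP double mutant H2-K1 became 0.019 with the replicate block. Irf1 in the averaged comparison became 0.062 without the 3 most MEP-like HSC libraries. With 1 library left out, ranges that crossed 0 were -0.30 to 0.13 (B2m) and -1.46 to 0.11 (H2-K1) in HSC S211I, -0.11 to 0.38 for B2m in the HSC double mutant, -0.057 to 0.43 (H2-K1) and -0.13 to 0.53 (H2-D1) in MEP P216L, -0.014 to 0.65 for H2-D1 in MEP S211I, -0.036 to 0.40 (B2m), -0.22 to 0.27 (H2-K1) and -0.23 to 0.44 (H2-D1) in the MEP double mutant, -1.62 to 0.013 for H2-K1 in MEP against HSC within S211I, and -3.70 to 0.18 for Irf1 in the averaged comparison.

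Of 16 alternatives to the 4 ratios, 14 kept direction and side of the threshold. Without libraries at 0 for either gene, the Psmb10 to Psmb7 difference was -1.36 and no longer passed, and the Psmb9 to Psmb6 difference was -0.98 and did. For Psmb9 to Psmb6 this leaves out the HSC library with the lowest ratio, which can only widen the difference. Of 27 pathway genes called in the averaged comparison, 4 kept the call in all alternatives. Replicate numbers did not pair libraries: deviations of same-numbered libraries correlated at -0.07 to 0.24 in HSC and -0.13 to 0.05 in MEP, so the replicate block is given here only. A low HSC depth, where 1 count was up to 6.61 CPM, limits Nlrc5, Psmb9 and Psmb10 there. RLE scaling moved the median of all genes in the averaged comparison from 0.73 to 0.31.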
